A study of Mus musculus with 8 samples.

Results

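Olfactory receptor genes, named Olfr in the mouse, were counted in early LPre and sPre B cells sorted from mouse bone marrow. Of 27179 genes in the count table, 1126 were Olfr genes, and 65 of these had 10 or more counts summed over the 8 libraries. These 65 were chosen by that sum, which covers all 4 groups, and with earlier results of these data known. The set is therefore given as a description. A further 181 Olfr genes had 1 to 9 counts and 880 had none. The members nearest the limit were Olfr15 with 10 counts and Olfr58 and Olfr1424 with 11 counts each. Just outside it were Olfr10, Olfr1061 and Olfr1447 with 9 counts each. A group of 8 genes, Olfr164 to Olfr171, lie beside the immunoglobulin lambda (Igl) locus on chromosome 16, and the other 57 members lie elsewhere. The 65 members were spread over 13 chromosomes.

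All mice were Flox/Flox at Upf1 and B1-8hi/+ at Igh, which gives them a heavy chain that is already rearranged. The control groups (Ctrl/Igh B1-8hi) were Mb1 +/+ and the knockout groups (cKO/Igh B1-8hi) were Mb1 Cre/+. Cre is driven from the Mb1 (Cd79a) locus and acts in the B lineage, where it removes part of Upf1. Donors were adults of 8 to 16 weeks and of both sexes, and each of the 4 groups had 2 libraries. Early LPre cells were gated as large CD43+ CD2- cells and sPre cells as small CD25+ CD2+ cells. The labels give no animal for a library, so the P values measure the spread between these libraries only.

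An olfactory sensory neuron chooses a single receptor gene and expresses it from a single allele, while the rest of the family stays silent in heterochromatin. Each receptor is a protein of the G-protein-coupled class, made from a coding sequence that usually lies in 1 exon, and most of the family sits in clusters of similar genes. The Igl locus is opened and recombined in sPre cells, where light chains are first made.

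Library totals ranged from 68516857 to 160426338 counts. Upf1 itself, the gene targeted in the knockout, was not lower by its gene-level count. It had 237 and 213 CPM (counts scaled to library totals that were adjusted by the TMM factor) in the Ctrl early LPre libraries and 244 and 258 in those labelled cKO. In sPre it had 186 and 198 CPM in Ctrl and 282 and 293 CPM in cKO. The deletion removes only some exons, so the gene-level count does not check the labels. Cd79a, which carries the Cre allele, was between 160 and 405 CPM in the 4 cKO libraries and between 543 and 1602 CPM in the 4 Ctrl libraries. Replicate 2 of both Ctrl groups stood apart from the other 6 libraries, with 19733 and 28205 counts of 4 Y-linked genes against at most 34, and results are also given without both of these libraries. Early B cell markers such as Pax5 were present in all libraries.

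The members beside Igl are shown first because they include Olfr164, the gene with the highest summed count, and because similar sequences can share reads. The segments, read 5′ to 3′ on the coding strand from GENCODE M21 (GRCm38, the same assembly as mm10), covers 30 bases of each coding sequence. Capitals mark the 3 codons at the DRY motif, a conserved stretch of the family at the end of the third membrane helix. In Olfr166 and Olfr168 the last of these codons, TTT, encodes phenylalanine in place of tyrosine.
Olfr164: atggcttatGACCGTTATgtagctatttgc
Olfr165: atggcctatGACCGTTATgtagctatttgt
Olfr166: atggcttatGATCGTTTTgtggctatctgc
Olfr167: atggcctatGACCGTTATgtggctatttgt
Olfr168: atggcttatGATCGTTTTgtggctatctgc
Olfr169: atgtcctatGATCGATATgtggccatctgc
Olfr170: atgtcctatGATCGATATgtggccatctgc
Olfr171: atgtcctatGATCGATATgtggccatctgc

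Olfr166 and Olfr168 were identical over this segment, and so were Olfr169, Olfr170 and Olfr171. Over the whole coding sequence, 4 of the 28 pairs were at least 90% identical. The closest were Olfr170 and Olfr171 at 97.5%, and Olfr166 and Olfr168 reached 95.7%. The other pairs reached down to 60.5%. Between 34.3% and 44.2% of the 50-base windows of Olfr166, Olfr168, Olfr169, Olfr170 and Olfr171 also occurred in another of these genes, so their separate counts are less certain than those of Olfr164, Olfr165 and Olfr167, which shared no such window with any other gene. Olfr166 is annotated on the plus strand and the other 7 genes on the minus strand, and the authors counted without strand, so reads from either strand of a gene were added together.

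Olfr164 (chromosome 16, 19285794 to 19286741, mm10) had the highest summed count of the Olfr genes and its near end lies 25.0 kb from Iglv2, the nearest Igl gene. It had 5 and 20 counts in the Ctrl early LPre libraries and 204 and 282 counts in the cKO early LPre libraries. In sPre it had 501 and 685 counts in Ctrl and 3986 and 5013 counts in cKO. Both libraries of cKO early LPre lay above those of Ctrl early LPre, both of Ctrl sPre above those, and both of cKO sPre above all others. Olfr165, 146 kb from Iglv2, had 5 and 3 counts in Ctrl early LPre and 54 and 68 counts in cKO early LPre. In sPre it had 55 and 39 counts in Ctrl and 1372 and 1524 counts in cKO. Its level in Ctrl sPre was close to that in cKO early LPre, unlike the level of Olfr164.

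Farther from Igl the Ctrl libraries were nearly empty while the cKO libraries were not. Olfr166, 226 kb away, had 1, 2, 4 and 6 counts in the Ctrl libraries (early LPre, then sPre), 41 and 20 counts in cKO early LPre and 481 and 427 counts in cKO sPre. Olfr167 had 0 counts in all 4 Ctrl libraries, 19 and 18 counts in cKO early LPre and 241 and 234 counts in cKO sPre. Olfr168, Olfr169 and Olfr170 followed the same order. Their Ctrl libraries held at most 2 counts each, and in cKO sPre they had 122 and 128, 107 and 90, and 63 and 50 counts. Olfr171, the farthest at 363 kb, had 2 and 2 counts in cKO early LPre, 38 and 25 counts in cKO sPre and none in Ctrl.

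In both cKO sPre libraries the count fell at each of the 7 steps from Olfr164 to Olfr171. It also fell at 7 and 6 of the 7 steps in the 2 cKO early LPre libraries. Per kb of coding sequence, the mean level in cKO sPre went from 43.9 CPM for Olfr164 to 14.4 for Olfr165, 4.59 for Olfr166, 2.39 for Olfr167 and 0.324 for Olfr171. In Ctrl sPre it went from 8.25 CPM per kb for Olfr164 to 0.639 for Olfr165 and 0.0705 for Olfr166. Olfr165 stood at 11.0% and 5.69% of the count of Olfr164 in the Ctrl sPre libraries, and at 34.4% and 30.4% in cKO sPre, so the share was lower in Ctrl at this stage. In early LPre it was 26.5% and 24.1% in cKO, and in Ctrl Olfr165 had 5 counts against 5 of Olfr164 in replicate 1 and 3 against 20 in replicate 2, which shows no such order. A count of 0 allows up to 3 counts per library, which is between 0.0217 and 0.0426 CPM here, and this covers counting error only.

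**Figure D1:**
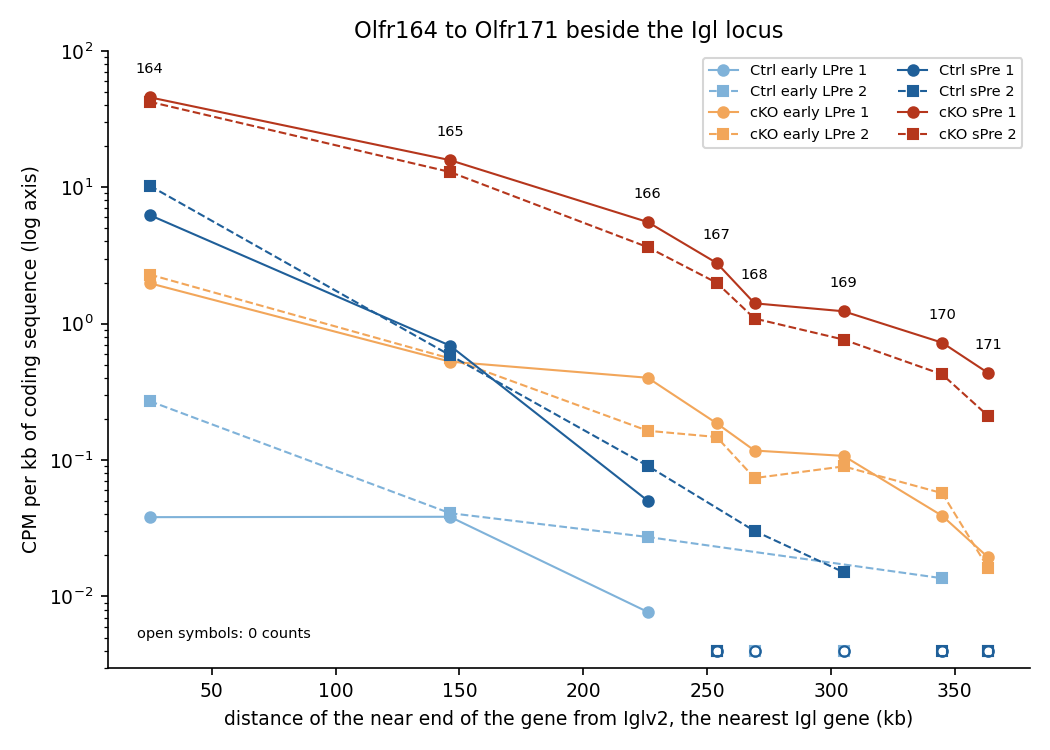
Level of Olfr164 to Olfr171 in each of the 8 libraries against the distance of the gene's near end from Iglv2 in kb. The y axis is CPM per kb of coding sequence on a log axis, each line is a library, numbers name the genes, and open symbols stand for 0 counts. The 2 cKO sPre libraries lie above all others at every gene and fall from 45.6 and 42.3 at Olfr164 to 0.436 and 0.211 at Olfr171.

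The effect of genotype was tested at each stage with edgeR's quasi-likelihood test across 17700 genes. In sPre all 8 genes beside Igl were higher in cKO at an adjusted P under 0.05, where 19.8% of all genes tested were higher. Olfr168 to Olfr171 passed the filter on low counts only through the cKO sPre libraries. Olfr166 and Olfr167 passed it only through cKO libraries. The count of 8 and the values of these genes are thus descriptions, and the count is not read against that share. The log2 fold change (±SE) was 2.41 ± 0.39 for Olfr164 (adjusted P = 0.0021), 4.48 ± 0.22 for Olfr165 (adjusted P = 1.1e-05) and 6.03 ± 0.59 for Olfr166 (adjusted P = 0.00017). The change was larger for each gene farther from Igl among these 3, though the difference between them was not tested. Where both Ctrl sPre libraries were at 0, only a lower bound against 3 counts per library can be given. On that basis Olfr167 was at least 57.5-fold higher in cKO sPre, Olfr170 at least 13.9-fold and Olfr171 at least 7.84-fold. Olfr168 had 250 counts in cKO against 2 in Ctrl, a ratio of 89.2 with a counting interval (95%, exact) of 24.4 to 741. For Olfr169 it was 197 counts against 1, a ratio of 141 (24.9 to 5580). All 8 calls held under every alternative tried, including the omission of each library and of both Ctrl replicate 2 libraries.

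In early LPre, 6 of the 8 genes were higher in cKO and none was lower, where 14.5% of all genes tested were higher. Of the 6, Olfr168 and Olfr169 entered the test only through the cKO sPre libraries. Olfr166 and Olfr167 reached the limit of the filter only in cKO libraries. The count and the values of these genes are thus descriptions, and the count is not read against that share. The log2 fold change was 4.03 ± 0.55 for Olfr164 (adjusted P = 0.0011, quasi-likelihood test of edgeR) and 3.74 ± 0.30 for Olfr165 (adjusted P = 8.3e-05). Olfr166 had 61 counts in cKO against 3 in Ctrl, a ratio of 18.4 (6.01 to 91.8), with an adjusted P of 0.0041. Olfr167, Olfr168 and Olfr169, all at 0 in Ctrl early LPre, were at least 5.21-fold, 2.98-fold and 3.09-fold higher. Olfr170 and Olfr171 had between 2 and 7 counts in the cKO early LPre libraries and did not pass the test (adjusted P = 0.092 and 0.15, quasi-likelihood test of edgeR). The call of Olfr168 was lost without Ctrl early LPre replicate 1 (adjusted P = 0.066) and without cKO early LPre replicate 1 (adjusted P = 0.051), again by edgeR's quasi-likelihood test. Markers of cell stage and of other cells also moved in early LPre. Of the 5 markers of the sort gates, Kit, Il2ra and Spn were lower in cKO, with log2 fold changes of -2.51, -1.02 and -0.57. Of the 12 B cell progenitor markers, 5 were lower and none was higher, where 16.9% of all genes were lower, with Dntt at -3.31 and Rag1 at -2.74. The 8 myeloid markers summed to 111 and 134 CPM in Ctrl early LPre and 50.2 and 55.6 CPM in cKO early LPre. The part of these differences in the early LPre values of the receptors and of the Igl genes was not tested.

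Across the transition from early LPre to sPre, Ctrl cells raised the genes nearest Igl. The log2 fold change was 5.98 ± 0.55 for Olfr164 (adjusted P = 2.7e-05, quasi-likelihood test of edgeR) and 3.98 ± 0.30 for Olfr165 (adjusted P = 9.6e-06), where 29.1% of all genes rose. Olfr166 had a log2 fold change of 2.11 ± 0.93 and did not pass (adjusted P = 0.080, quasi-likelihood test of edgeR), and Olfr167 to Olfr171 had between 0 and 2 counts in any Ctrl library. In cKO cells all 8 genes rose, where 31.6% of all genes did, and here too Olfr168 to Olfr171 entered the test only through their cKO sPre counts. Their log2 fold changes lay between 3.32 for Olfr169 and 4.73 for Olfr165. The interaction of stage and genotype, which was called for 4.24% of all genes, was called for none of the 8 by edgeR's quasi-likelihood test, with 1 at an unadjusted P under 0.05.

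The 9 Igl variable, joining and constant genes, which encode the lambda light chain, had a summed level of 1504 ± 58.6 CPM (SD, n = 2) in Ctrl sPre and 691 ± 26.8 CPM in cKO sPre. In early LPre the same sum was 4.60 ± 1.52 CPM in Ctrl and 11.4 ± 0.284 CPM in cKO. Thus the Igl sum was lower in both cKO sPre libraries than in both Ctrl sPre libraries, and higher in both cKO early LPre libraries. In cKO sPre, 8 of the 9 Igl genes were lower, where 14.9% of all genes tested were, with log2 fold changes of -0.68 for Iglc3 to -2.28 for Iglj1. Iglv2, beside Olfr164, was at -0.89 ± 0.23 (adjusted P = 0.018, quasi-likelihood test of edgeR), and Iglv3 was at 0.05 ± 0.26 and did not pass (adjusted P = 0.90).

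In early LPre, 4 of the 9, Iglv1, Iglv2, Iglv3 and Iglc2, were higher in cKO, where 14.5% of all genes tested were, with log2 fold changes of 2.24, 2.43, 1.73 and 1.30. Beyond Olfr171 lies Lamp3, which encodes a lysosomal membrane protein. It had 22 and 5 counts in Ctrl early LPre, 29 and 26 in cKO early LPre, 22 and 12 in Ctrl sPre and 155 and 94 in cKO sPre. It was higher in cKO sPre with a log2 fold change of 2.48 ± 0.56 (adjusted P = 0.0097, quasi-likelihood test of edgeR). B3gnt5, a glycosyltransferase gene 499 kb from Iglv2, was at 0.03 ± 0.11 in the same comparison (adjusted P = 0.87) but rose with stage in Ctrl by 2.04 ± 0.11. The 8 receptor genes thus lay between Igl genes that were mostly lower in cKO sPre and a gene that was higher.

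**Figure D2:**
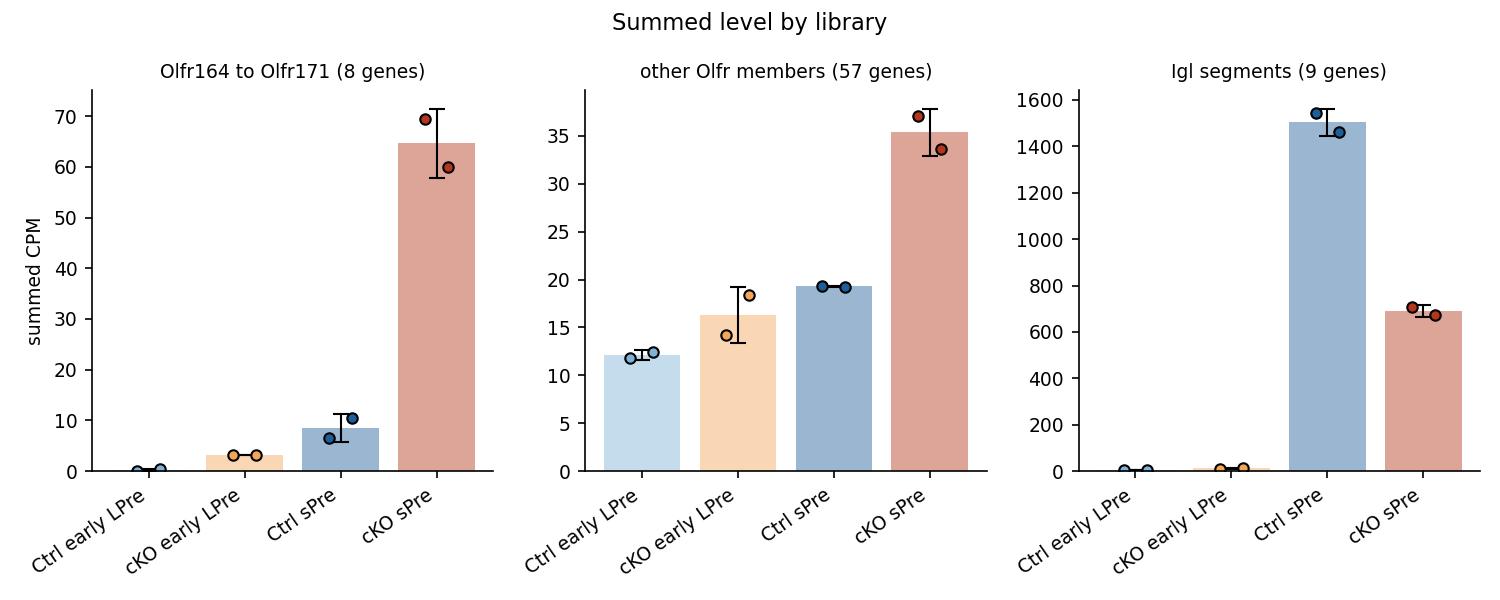
Summed CPM of Olfr164 to Olfr171, of the other 57 Olfr members and of the 9 Igl genes. Bars are group means, error bars the SD (n = 2) and points the libraries. The Olfr164 to Olfr171 sum was highest in cKO sPre at 64.7 ± 6.80 CPM, whereas the Igl sum was highest in Ctrl sPre at 1504 ± 58.6 CPM.

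Summed over the 8 genes, the level was 0.206 ± 0.179 CPM in Ctrl early LPre, 3.20 ± 0.0155 in cKO early LPre, 8.51 ± 2.67 in Ctrl sPre and 64.7 ± 6.80 in cKO sPre. The other 57 members summed to 12.1 ± 0.482, 16.3 ± 2.97, 19.3 ± 0.0123 and 35.4 ± 2.48 CPM in the same order. The cluster thus went from 0.671% and 2.61% of the counts of all members in the Ctrl early LPre libraries to 65.2% and 64.0% in cKO sPre. In these bulk libraries, a higher level in each cell and more cells with the transcript cannot be told apart. Of the 1126 Olfr genes, 120 and 124 had at least 1 count in the cKO sPre libraries, 82 and 70 in Ctrl sPre, 80 and 68 in Ctrl early LPre and 88 and 98 in cKO early LPre. The libraries differed in depth, with totals of 84973705 and 118143514 counts in cKO sPre and 81965096 and 68516857 in Ctrl sPre, and the part of depth in these numbers was not tested. Over all genes, 20184 and 20467 had at least 1 count in cKO sPre and 20013 and 19535 in Ctrl sPre.

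**Figure D3:**
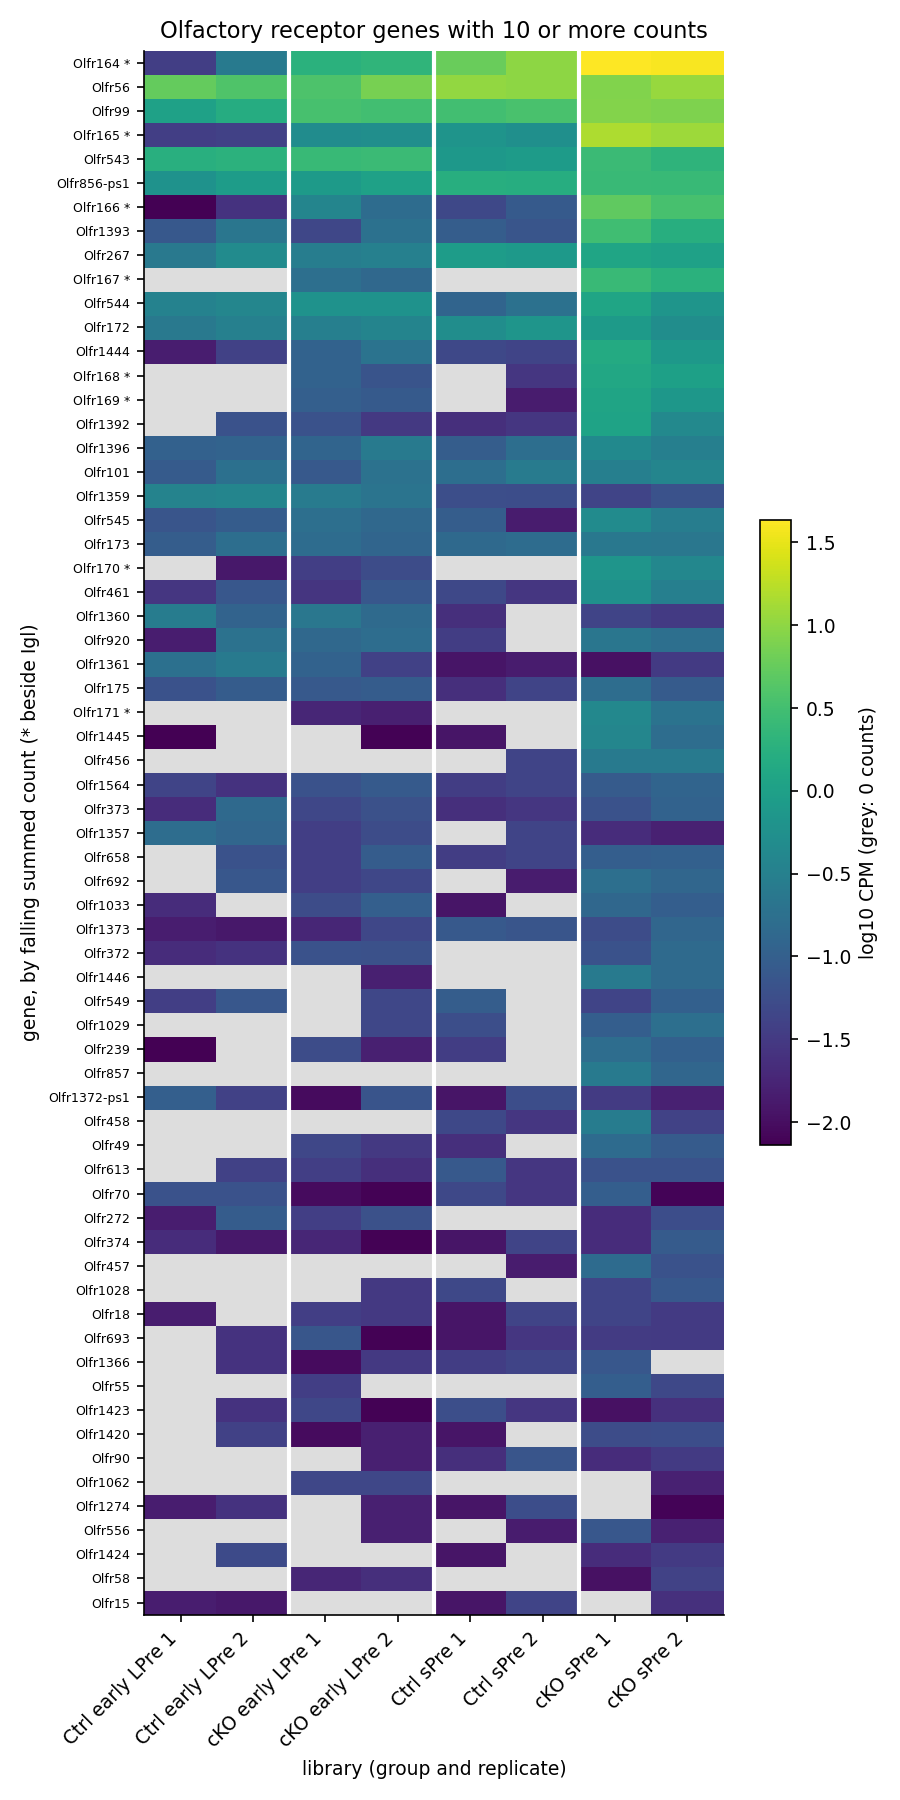
Level of the 65 Olfr members in each of the 8 libraries as log10 CPM, ordered by falling summed count, with grey for 0 counts and an asterisk for Olfr164 to Olfr171. Of the 65 genes, 61 had counts in both cKO sPre libraries and 37 in both Ctrl sPre libraries. In early LPre, 50 had counts in both cKO libraries and 34 in both Ctrl libraries. The genes were chosen on a sum that includes these counts, and the libraries differ in depth, so these numbers are descriptions.

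Of the 65 members, 37 passed the filter on low counts and 28 did not. Of the 37, 15 reached the limit of the filter in fewer than 2 libraries outside cKO sPre. Such genes could enter the test only by being high in cKO sPre. The counts and medians of members below, in each comparison, are thus descriptions and no support for a difference of the family. In sPre, 20 members were higher in cKO and none was lower, where 19.8% of all genes tested were higher. Of the 20, 10 passed the filter without the cKO sPre libraries. Among these 10, Olfr166, Olfr167, Olfr545 and Olfr1444 then passed only through the cKO early LPre libraries. Among the 29 tested members elsewhere, 12 were higher, and the median log2 fold change was 1.75 beside 0.01 over all genes tested. Across all genes, 14.9% were lower in cKO sPre. With no filter, all 65 members were tested and 24 were higher in cKO sPre, where 15.8% of 22889 genes were. The count elsewhere fell from 12 to 6 without cKO sPre replicate 1, to 7 without Ctrl sPre replicate 2, and to 8 without Ctrl sPre replicate 1 or without both Ctrl replicate 2 libraries.

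In early LPre, 2 of the 29 tested members elsewhere were higher in cKO and none was lower, where 14.5% of all genes were higher and 16.9% lower. Their median log2 fold change was 0.28 beside -0.06 over all genes. From early LPre to sPre, 5 of the 29 rose and 6 fell in Ctrl, where 29.1% of all genes rose and 31.1% fell. In cKO 12 rose and 2 fell, where 31.6% of all genes rose and 31.1% fell. The medians for the members elsewhere were 0.01 in Ctrl and 1.30 in cKO, beside 0.02 and 0.05 over all genes. The stage comparisons share their libraries with the genotype comparisons. With DESeq2, 4 members elsewhere rose and 4 fell in Ctrl, and with a replicate block 4 rose and 6 fell. Some of the Ctrl stage calls named below therefore did not hold. The 13 members called in the Ctrl stage comparison became 8 when only its 4 libraries were fitted and also 8 without both Ctrl replicate 2 libraries.

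Outside the Igl region, the largest called genotype differences in sPre, among receptors that passed the filter without the cKO sPre libraries, were those of Olfr1393 and Olfr1444, each in a row of receptors that begins beside an expressed gene. Olfr1393 (chromosome 11, 49263873 to 49292359, mm10) begins 0.846 kb beyond the 3′ end of Mgat1, an N-glycan glycosyltransferase gene on the same strand. It had 11 and 17 counts in Ctrl early LPre, 5 and 24 in cKO early LPre, 8 and 5 in Ctrl sPre and 280 and 211 in cKO sPre. Only the cKO sPre libraries stood above the rest. The log2 fold change was 4.80 ± 0.73 in sPre (adjusted P = 0.0014, quasi-likelihood test of edgeR) and -0.25 ± 0.71 in early LPre (adjusted P = 0.82). Olfr1392, 30.3 kb from Mgat1, had 104 and 55 counts in cKO sPre and at most 7 counts in any other library. Its log2 fold change in sPre was 4.85 ± 1.08, given as a description because Olfr1392 passed the filter only through the cKO sPre libraries. Mgat1 had 22892 and 18971 counts in Ctrl sPre and 21296 and 27763 in cKO sPre, a log2 fold change of -0.25 ± 0.09 that did not pass (adjusted P = 0.062, quasi-likelihood test of edgeR). Of the coding sequence of Olfr1393 and Olfr1392, 43.6% and 49.5% of 50-base windows also occurred in other Olfr genes, each other included.

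The row beside Lpxn, an adaptor protein gene on chromosome 19, also had its highest counts in cKO sPre. Olfr1444, 28.0 kb beyond the 3′ end of Lpxn, had 2 and 3 counts in Ctrl early LPre, 12 and 26 in cKO early LPre, 4 and 3 in Ctrl sPre and 138 and 93 in cKO sPre. It was higher in cKO at both stages, by 4.59 ± 0.65 in sPre (adjusted P = 0.0010) and 2.65 ± 0.71 in early LPre (adjusted P = 0.023), both by edgeR's quasi-likelihood test. Olfr1444 reached the limit of the filter only in cKO libraries, so these values are descriptions. The early LPre call was lost without Ctrl early LPre replicate 1 (adjusted P = 0.14), without cKO early LPre replicate 2 (adjusted P = 0.12) and without both Ctrl replicate 2 libraries (adjusted P = 0.055). Olfr1445 and Olfr1446 come next, and were singled out after their values were seen. They had 36 and 20 and 23 and 18 counts in cKO sPre, with at most 2 in any other library. Olfr1445 had 56 counts in cKO sPre against 1 in Ctrl sPre, a ratio of 40.0 (6.88 to 1606), and Olfr1446 was at least 5.04-fold higher. Both passed the filter only through the cKO sPre libraries. Lpxn itself was at 0.29 ± 0.12 in sPre (adjusted P = 0.10, quasi-likelihood test of edgeR).

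On chromosome 7, Olfr543 and Olfr544 lie beside Rrm1, which encodes the large subunit of ribonucleotide reductase, and both were lower in sPre than in early LPre in Ctrl. Olfr543, 7.0 kb beyond the 3′ end of Rrm1 and on the other strand, had 245 and 149 counts in Ctrl early LPre, 275 and 349 in cKO early LPre, 63 and 61 in Ctrl sPre and 251 and 260 in cKO sPre. Its level was lowest in Ctrl sPre, at 0.805 ± 0.0852 CPM (SD, n = 2), against 1.84 ± 0.0972 in Ctrl early LPre and 2.40 ± 0.455 in cKO sPre. The fall in Ctrl was -1.19 ± 0.24 on the log2 scale (adjusted P = 0.0024, quasi-likelihood test of edgeR). The same transition in cKO gave -0.12 ± 0.23 (adjusted P = 0.66), and the interaction was 1.07 ± 0.33 and did not pass (adjusted P = 0.11), both by edgeR's quasi-likelihood test. Olfr544, 14.3 kb from Rrm1, had 10 and 13 counts in Ctrl sPre and 110 and 84 in cKO sPre, and Olfr545, which was singled out after its values were seen, had 8 and 1 against 45 and 36. The stage comparison of Olfr545 in Ctrl gave -0.49 ± 0.79 and did not pass (adjusted P = 0.62, quasi-likelihood test of edgeR). In sPre the 3 genes were higher in cKO by 1.57, 2.62 and 2.74 on the log2 scale. Olfr545 reached the limit of the filter only in cKO libraries, so its value is a description. Rrm1 fell with stage, with log2 fold changes of -3.12 ± 0.20 in Ctrl and -2.19 ± 0.19 in cKO, and its genotype difference in sPre was 0.48 ± 0.18 (adjusted P = 0.075, quasi-likelihood test of edgeR). The stage call of Olfr544 in Ctrl (-1.28 ± 0.45, adjusted P = 0.035, quasi-likelihood test of edgeR) was lost under 9 alternatives, the omission of each early LPre and each Ctrl sPre library among them.

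**Figure D4:**
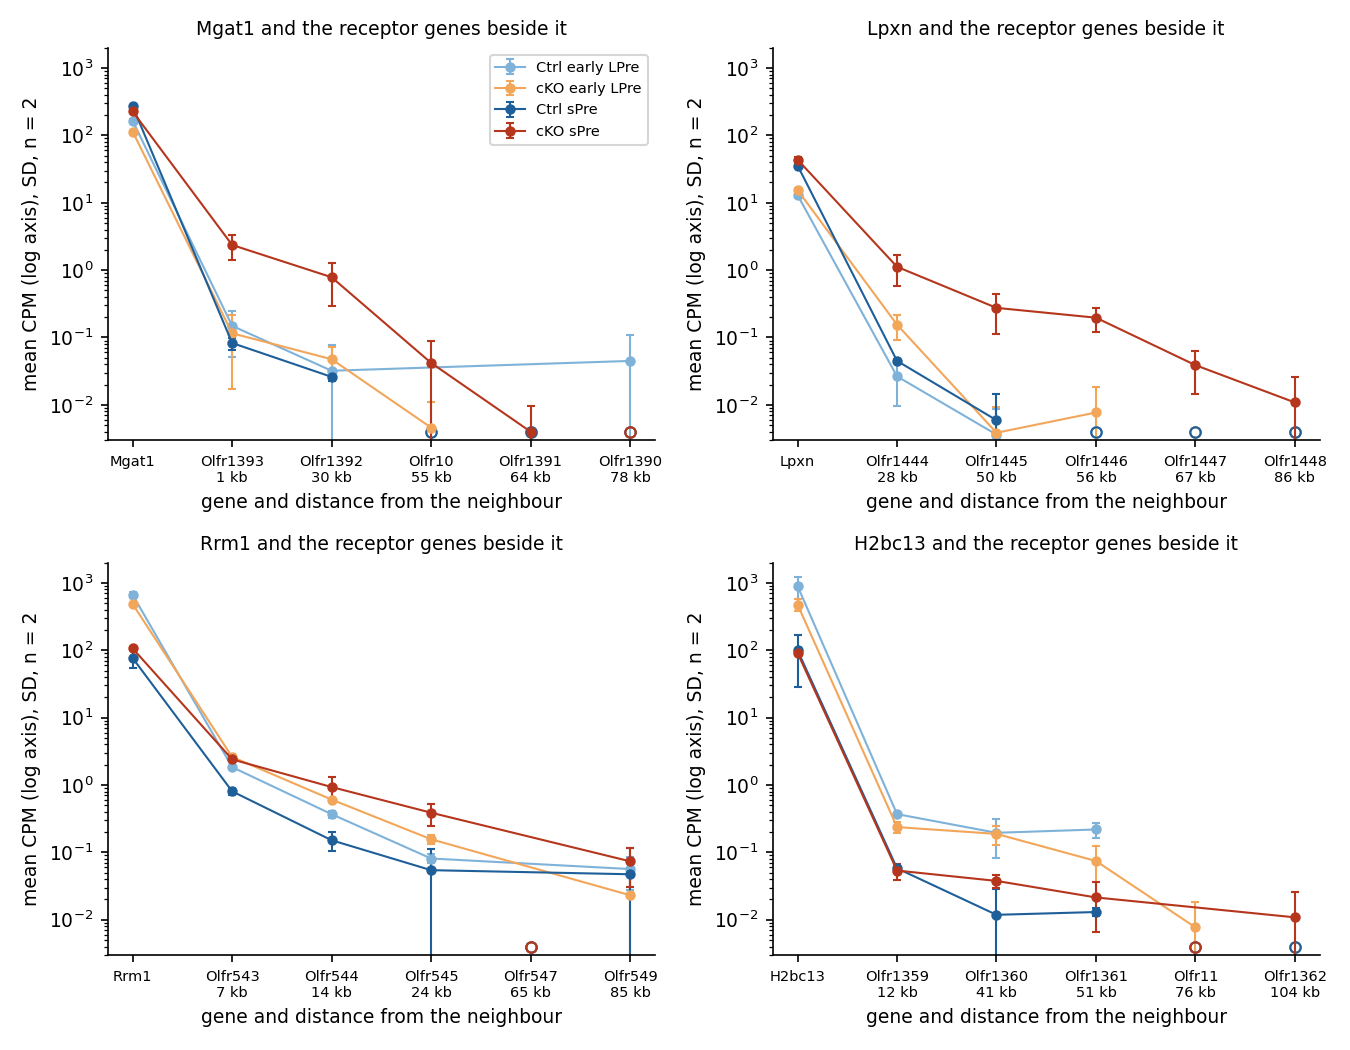
Mean CPM on a log axis of an expressed gene (Mgat1, Lpxn, Rrm1 or H2bc13) and of the Olfr genes beside it in order of distance in kb, for the 4 groups with SD (n = 2). Open circles stand for 0 counts, and lower bars that would reach 0 are cut short. Beside Mgat1 and Lpxn the nearest receptor reached 2.36 and 1.12 CPM in cKO sPre and at most 0.155 CPM in any other group.

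Beside the histone genes of chromosome 13 the receptors were higher in early LPre than in sPre. Olfr1359, 11.7 kb from the histone gene H2bc13, had 49 and 30 counts in Ctrl early LPre, 29 and 27 in cKO early LPre, 5 and 4 in Ctrl sPre and 4 and 8 in cKO sPre. The early LPre and sPre libraries did not overlap in either genotype. It fell with stage, with log2 fold changes of -2.64 ± 0.53 in Ctrl (adjusted P = 0.0024) and -2.09 ± 0.51 in cKO (adjusted P = 0.0066) by edgeR's quasi-likelihood test. Olfr1360 and Olfr1361 also fell in Ctrl, with 47 counts in early LPre against 2 in sPre and 45 against 2. In cKO Olfr1360 fell, at -2.30 ± 0.78 (adjusted P = 0.030), whereas Olfr1361 was at -1.64 ± 0.85 and did not pass (adjusted P = 0.12), both by edgeR's quasi-likelihood test. The cKO calls of Olfr1359 and Olfr1360 did not hold without cKO sPre replicate 1. With DESeq2, 1 member outside the Igl region was called lower in the cKO stage comparison. H2bc13 fell as well, with log2 fold changes of -3.17 ± 0.48 in Ctrl and -2.39 ± 0.46 in cKO. None of the 3 receptors passed the test of genotype in sPre. Olfr1359 and Olfr1360 shared 87.9% of their 50-base windows, so reads of one may be counted for the other. Olfr1357 on chromosome 10, with 32 counts in Ctrl early LPre and 3 in Ctrl sPre, was the remaining member that fell in Ctrl.

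Olfr99 followed its neighbour in every comparison. It lies on chromosome 17, 5.02 kb beyond the 3′ end of H2-M3, a class Ib histocompatibility gene. It had 147 and 121 counts in Ctrl early LPre, 369 and 403 in cKO early LPre, 260 and 248 in Ctrl sPre and 794 and 1002 in cKO sPre. Its 4 log2 fold changes lay between 1.32 and 1.36, each with an SE of 0.21 or 0.22, and all passed (adjusted P from 0.00055 to 0.0026, quasi-likelihood test of edgeR). Those of H2-M3 lay between 0.81 and 1.05, and all passed as well. Olfr101, 25.0 kb from H2-M3, had 28 and 48 counts in cKO sPre and 14 and 19 in Ctrl sPre, a log2 fold change of 0.67 ± 0.58 that did not pass (adjusted P = 0.41, quasi-likelihood test of edgeR).

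Several of the members with higher counts did not differ by genotype at the threshold. Olfr56 on chromosome 11 had the second highest sum, with 766 and 305 counts in Ctrl early LPre, 413 and 947 in cKO early LPre, 892 and 703 in Ctrl sPre and 771 and 1401 in cKO sPre. The libraries of the 2 genotypes overlapped at both stages. Its log2 fold change was -0.07 ± 0.30 in sPre (adjusted P = 0.89) and 0.23 ± 0.30 in early LPre (adjusted P = 0.61), by edgeR's quasi-likelihood test. By its GENCODE extent Olfr56 overlaps 5 other genes, so part of these counts may belong to them. They include Ifi47 on the same strand, an interferon-induced GTPase gene with a mean of 38.3 CPM, and 9930111J21Rik1 and 9930111J21Rik2 on the other strand, with means of 176 and 126 CPM. Olfr56 rose with stage by 1.11 ± 0.31 in Ctrl and 0.82 ± 0.30 in cKO. In the same comparisons 9930111J21Rik1 rose by 2.32 and 2.26 and 9930111J21Rik2 by 2.30 and 2.25, and their part in the rise of Olfr56 was not tested. Ifi47 was at 0.39 and 0.44 and did not pass. Olfr856-ps1, a pseudogene 7.30 kb from Zfp317, rose with stage by 1.14 ± 0.27 in Ctrl and 1.43 ± 0.27 in cKO. Olfr267, 11.5 kb from Ecpas, rose by 1.20 ± 0.39 and 1.90 ± 0.39. Olfr172, 25.9 kb from Cldnd1, rose in Ctrl by 1.06 ± 0.40 (adjusted P = 0.048, quasi-likelihood test of edgeR) and was at 0.97 ± 0.39 in cKO (adjusted P = 0.056). Olfr1396, beside Ifi47, had 8 and 12 counts in Ctrl sPre and 42 and 39 in cKO sPre, a log2 fold change of 1.54 ± 0.57 that missed the threshold (adjusted P = 0.068, quasi-likelihood test of edgeR).

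A further 3 receptors, singled out after their values were seen, had most of their counts in cKO sPre. Olfr857 had 23 and 16 counts in cKO sPre and 0 in the other 6 libraries, and was at least 4.84-fold higher than in Ctrl sPre. Olfr456 had 23 and 32 counts in cKO sPre, 0 and 3 in Ctrl sPre and none in early LPre. Its ratio in sPre was 13.1 (4.25 to 65.4). Olfr461 had 53 and 38 counts in cKO sPre and at most 10 in any other library, with a log2 fold change of 3.47 ± 0.77 in sPre. All 3 receptors passed the filter only through the cKO sPre libraries, so these values are descriptions. Both Olfr461 and Olfr456 lie on chromosome 6 in regions with bitter taste receptor genes, of which Tas2r137 was also higher in cKO sPre, at 145 and 149 counts against 31 and 27 in Ctrl.

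Position beside an expressed gene was common among the members. Of the 57 members elsewhere, 39 (68.4%) lay within 50 kb of a gene with a mean of at least 1 CPM, with a median distance of 28.0 kb. Of the 1061 Olfr genes under 10 counts, 100 (9.43%) did, with a median distance of 317 kb. For 27 of the 57, the adjacent gene outside the family lay within 50 kb, had at least 1 CPM and pointed its 3′ end at the receptor. The same share was not taken for the Olfr genes under 10 counts, so the 27 are a description. For 21 tested members elsewhere with Ctrl sPre counts, the neighbour and the receptor could be compared. The receptor had the larger log2 fold change of cKO over Ctrl in sPre in 20 of 21, the exception being Olfr101. The median was 1.57 for the receptors and -0.05 for the neighbours. Several of these neighbours were shared between receptors, so the 21 are not independent, and the members were selected on a sum that includes the cKO sPre counts. Of the 21 receptors, Olfr1392, Olfr1445, Olfr692, Olfr239 and Olfr373 passed the filter only through the cKO sPre libraries, so the tally and the medians are descriptions and support nothing.

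**Figure D5:**
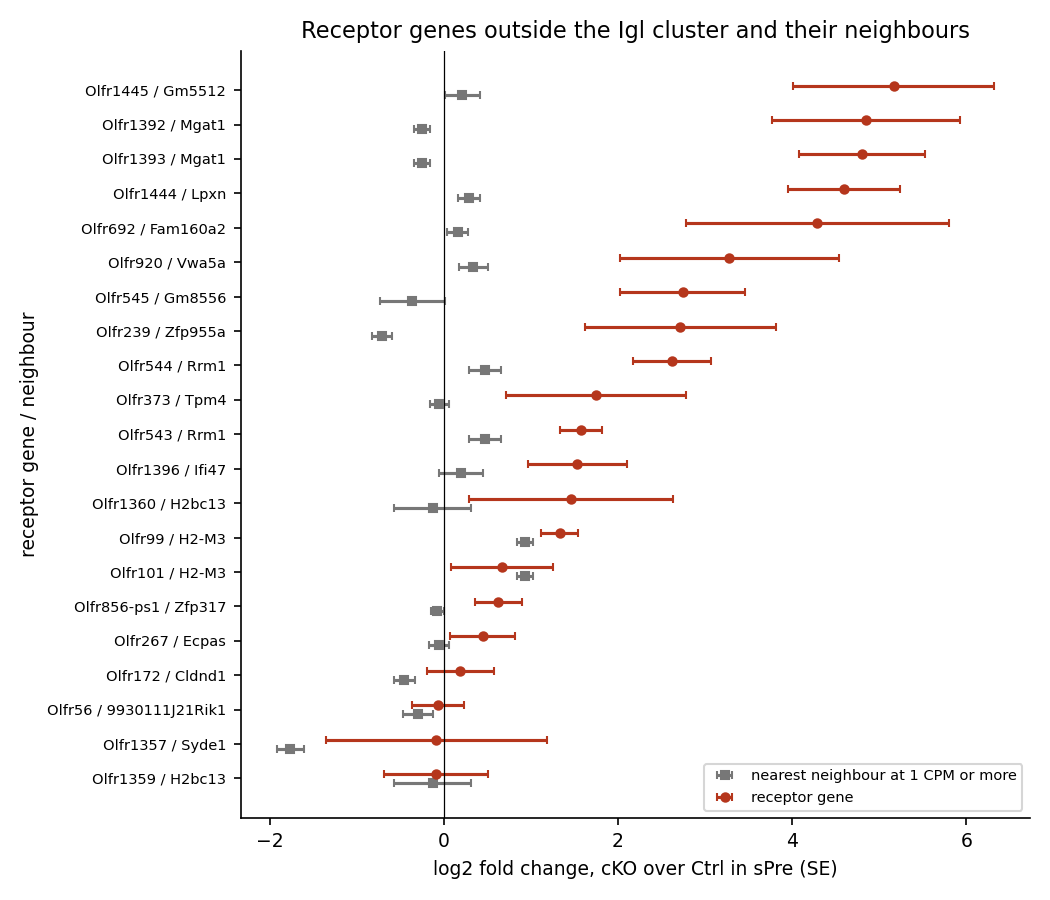
Log2 fold change of cKO over Ctrl in sPre, with SE, for 21 Olfr genes outside the Igl cluster (circles) and for the nearest neighbour of each at 1 CPM or more (squares). The receptors reach 5.17 for Olfr1445, while the neighbours lie between -1.76 for Syde1 and 0.93 for H2-M3.

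Genes that work with olfactory receptors in neurons were followed by 3 lists, beside 19.8% of all genes higher and 14.9% lower in cKO sPre. Of 15 olfactory transduction genes, 11 were tested, and in sPre 1 was higher and 3 were lower in cKO, with a median log2 fold change of -0.11. The higher gene was Gng13, a G-protein gamma subunit of chemosensory cells. Of the genes for channels of the olfactory cilium, Cnga2, Cnga4 and Ano2 had at most 8 counts in any library, while Cngb1 had 108 and 35 counts in Ctrl early LPre and between 7 and 32 counts in the other 6 libraries. Of 13 receptor trafficking and sensory neuron genes, 7 were tested, and 1 was higher (Reep1) and 1 lower (Ncam1) in cKO sPre, with a median of -0.20. The receptor export genes Rtp1 and Rtp2 had at most 3 counts in any library. Of 20 factors for receptor choice and silencing, 18 were tested, and 3 were higher and 3 lower in cKO sPre, with a median of 0.05. The higher ones were Ddit3 and Atf5, transcription factors of the stress response, and Lhx2, which had 3 and 0 counts in Ctrl sPre and 22 and 18 in cKO sPre. The lower ones were Eif2ak3, which encodes a kinase of the stress response, Ebf1 and Ldb1, with log2 fold changes of −0.92, −0.80 and −0.45. The silencing factors Kdm1a, Lbr, Ehmt1, Ehmt2, Setdb1, Trim28, Cbx1, Cbx3 and Cbx5 did not pass in this comparison. In early LPre, 1 of the 18 was higher and 5 were lower in cKO, where 14.5% of all genes tested were higher and 16.9% lower. Cbx3 and Cbx5 were among the lower, with log2 fold changes of -0.65 and -0.66.

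The olfactory sensory neuron markers summed to between 7.07 and 8.16 CPM in the early LPre libraries and between 2.45 and 3.77 CPM in sPre. Their sum was 2.45 and 3.25 CPM in cKO sPre and 3.63 and 3.77 CPM in Ctrl sPre. The members did not move together: Omp, the olfactory marker protein gene, had a log2 fold change of -0.75 in sPre and did not pass (adjusted P = 0.0535, quasi-likelihood test of edgeR), whereas Gng13 was higher. Of the 3 markers tested, 1 was higher and none lower in cKO sPre, with a median of 0.16. Of the other chemosensory families, none of 15 trace amine receptors and none of 4 Fpr-rs genes reached 10 counts. Among 232 Vmn1r genes only Vmn1r32 was tested, and it was higher in cKO sPre. Of 12 tested Vmn2r genes 2 were higher in cKO sPre, of 5 tested Tas2r genes 2, of 2 tested Tas1r genes 1, and of 11 tested Ms4a genes 3, and none of these families had a lower gene there, where 19.8% of all genes tested were higher and 14.9% lower. With so few genes tested per family, these counts are not read against those shares.

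Markers of other cells were followed in the same libraries. The 8 T and NK cell markers summed to 2.99 and 2.84 CPM in Ctrl sPre and 2.43 and 2.30 in cKO sPre. The 8 myeloid markers summed to 304 and 356 CPM in Ctrl sPre and 211 and 243 in cKO sPre, and the 7 erythroid markers in the table to 33.1 and 38.6 and to 24.7 and 15.6. All 3 sums were lower in cKO sPre, the group with the highest Olfr levels, and their part in the Olfr results was not tested. Of the 12 B cell progenitor markers, 2 were higher and 4 lower in cKO sPre, with a summed level of 9158 and 9397 CPM in Ctrl and 6159 and 6170 in cKO. None of the 5 markers of the early LPre and sPre gates, Cd2, Il2ra, Spn, Kit and Mki67, differed by genotype in sPre at the threshold, whereas 3 of them were lower in cKO early LPre. Of 61 members with a coding sequence in GENCODE, 41 shared at least one 50-base window with another gene, so that the split of counts between similar receptors outside the Igl region is uncertain as well.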

How the data were processed

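Total RNA depleted of ribosomal RNA from sorted early LPre and sPre cells was sequenced from a directional kit. Per the study's methods and the submitters' processing notes, the authors used Trim Galore for trimming, HISAT2 for alignment to mm10 and featureCounts for counting without strand, and deposited raw counts per gene without normalization. Genes are listed by identifier, and 25275 of 27179 were named from RefSeq (GRCm38.p6). Every column of the count table matched a sample.

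The members and the gene lists were chosen with earlier results of these data known. The fits used edgeR 4.0.16 in R 4.3.3 with TMM factors (0.862 to 1.09), edgeR's filter by group (17700 genes kept, common biological coefficient of variation 0.174) and 1 model with a mean per group. The quasi-likelihood test was two-sided, adjusted by Benjamini-Hochberg across the 17700 genes, and P under 0.05 was called. On simulated counts with the same design the fit was checked for known changes. The SE given was the absolute log2 fold change divided by the square root of the test's F statistic. CPM used TMM-scaled totals. Named were Olfr164 to Olfr171, the 12 other members with the highest mean CPM, members called in any of 4 comparisons (the 5 lowest P where over 12 shared a direction), the 3 genes on each side of the limit of 10 counts, and neighbours within 50 kb (250 kb for the Igl region). Not every neighbour is reported. Gene lists covered olfactory transduction, receptor trafficking and sensory neurons, receptor choice and silencing, other chemosensory families and cell type markers. Coding sequences came from GENCODE M21, aligned with Biopython 1.88 and searched with BLAST 2.17.0. The alternatives were DESeq2 1.42.0, median-ratio factors, no filter, a replicate block, a fit of only the 4 libraries compared, omission of immunoglobulin genes or of each library, a limit of 50 counts, other library sizes and, added after the data were seen, omission of both Ctrl replicate 2 libraries.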

Additional observations from a re-analysis of the deposited data

Results flagged for a closer look

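The effect of genotype on Olfr1393 differed between the stages: the interaction of stage and genotype, tested directly by edgeR's quasi-likelihood test, gave a log2 difference of 5.05 ± 1.01 (adjusted P = 0.033), where 4.24% of all genes passed. Levels were 0.149 ± 0.0978 CPM (SD, n = 2) in Ctrl early LPre, 0.115 ± 0.0981 in cKO early LPre, 0.0827 ± 0.0167 in Ctrl sPre and 2.36 ± 0.954 in cKO sPre. The adjusted P was over the threshold when Ctrl early LPre replicate 2 (0.11), cKO early LPre replicate 1 (0.084), Ctrl sPre replicate 1 (0.057), Ctrl sPre replicate 2 (0.098) or cKO sPre replicate 1 (0.095) was left out of edgeR's quasi-likelihood test. No group had enough libraries to look for single libraries far from the rest.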

How the results depend on the processing

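Of the 64 calls of single Olfr genes in the 5 comparisons, no log2 fold change turned sign under any alternative that could be fitted, and all 64 stayed called with median-ratio factors and without immunoglobulin genes. The calls lost numbered 7 of 64 with DESeq2, 2 with no filter, 4 of 60 when only the 4 libraries compared were fitted, 5 to 13 when a library was left out, and 13 without both Ctrl replicate 2 libraries. The number of members changed from early LPre to sPre in Ctrl went from 13 to 8 both in the fit of 4 libraries and without both Ctrl replicate 2 libraries, and from 9 to 11 when a library was left out. Leaving out a library gave 19 to 24 in the cKO stage comparison (22 with all), 6 to 8 in early LPre (8 with all), 14 to 24 in sPre (20 with all) and 0 to 1 for the interaction (1 with all), where the remaining library of a group was assumed to vary like the others. Samples with the same replicate number shared only that number as far as the labels say. The correlation of their deviations was 0.395 between the stages in Ctrl and 0.254 in cKO. Between the genotypes it was 0.155 in early LPre and 0.0858 in sPre. Whether libraries of the 2 stages with the same number came from the same animal was not tested. A replicate block gave 12, 23, 8, 21 and 1 called members in place of 13, 22, 8, 20 and 1. Raw library sizes moved the mean summed CPM of Olfr164 to Olfr171 in cKO early LPre to 3.23, and that of the other members to 10.9 in Ctrl early LPre, 19.9 in Ctrl sPre and 38.0 in cKO sPre. With immunoglobulin genes left out of library sizes, the first of these was 3.21 and the sum of the other members in Ctrl sPre 19.5. These shifts exceeded the SD of 2 libraries. Of the 65 members, 28 were too low at this depth to pass the filter.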
